A study of Homo sapiens with 24 samples.

Results

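Every cytokine-treated culture of the study was set against the vehicle-treated culture of the same batch, to see which genes moved under TGF-β, IL-6 and IL-4+IL-13 alike and how far the vehicle libraries themselves deviated. The comparison holds 18 cytokine libraries and 6 vehicle libraries, which are all 24 libraries of the series, and were chosen by their treatment label. Each of 6 batches gave 4 libraries, 1 per treatment, so that the mean of 3 cytokine libraries minus vehicle gave 6 paired differences. The cultures were human embryonic stem cells of the H9 line (H9WAO9, wild type), differentiated through vagal neural crest cells to sensory neurons and matured before treatment. TGF-β was given at 2 ng/ml, IL-4 at 10 ng/ml and IL-13 at 3 ng/ml for 5 days, in PBS with 0.1% BSA, and vehicle cultures received the same carrier. The dose and time of the IL-6 treatment are not given in the sources used here. All 24 libraries derive from this line, and whole cultures were lysed, in which neurons, glia and mesenchymal cells lie together. Fewer cells of a type and less RNA per cell can therefore not be told apart. Per library, 33342682 to 39817784 reads were counted on genes.

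The 3 treatments enter cells by separate receptors. TGF-β binds a serine/threonine kinase receptor that phosphorylates SMAD proteins, IL-6 signals through gp130 and STAT3, and IL-4 and IL-13 share a receptor chain that activates STAT6. A change common to all of them would thus not be specific to a single treatment, and the pathway that carried it was not tested. All 3 comparisons also share the vehicle libraries, so a vehicle library that deviates shifts each of them in the same direction.

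The vehicle library of batch 2 stood apart from its batch. Its root mean square (RMS) deviation from the other 3 libraries of the batch, over 20962 genes with a mean count of at least 10, was 0.961 in log2 CPM, where CPM are counts scaled to a common library size, while the median of the 24 libraries was 0.518 and the next highest value was 0.643. Of these genes, 21.2% lay more than 1 log2 unit away from the other 3 libraries. Its mean correlation across genes was 0.938 with its own batch and 0.975 with batch 4, and its closest library was the IL-6 library of batch 4, with r = 0.980. In batch 4, all libraries but that of IL-6 were also closer to another batch than to their own, by smaller margins (0.966 against 0.971 for vehicle, 0.966 against 0.976 for TGF-β, 0.968 against 0.975 for IL-4+IL-13). The labels were kept, and the results that batch 2 moves most are given with and without it.

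**Figure D1:**
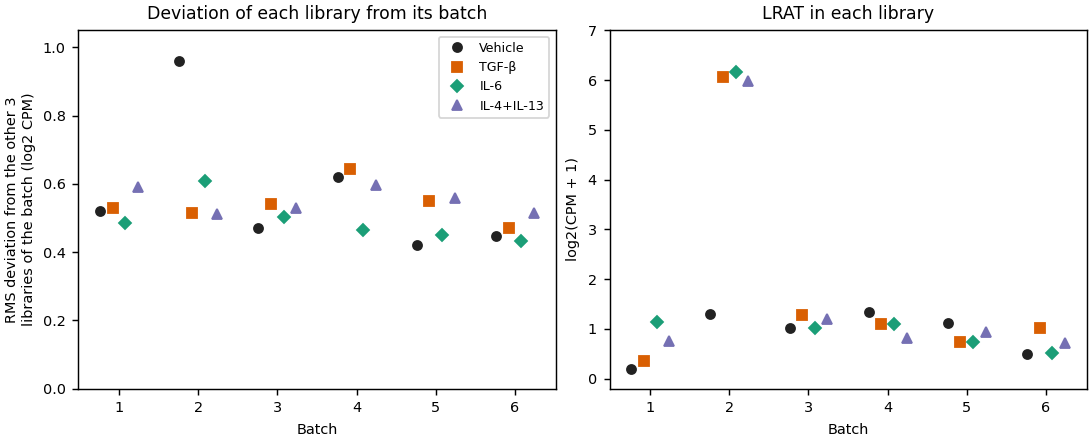
Left, RMS deviation (log2 CPM) of each of the 24 libraries from the other 3 of its batch, by batch, with 1 point per library and the symbol giving the treatment; the vehicle library of batch 2, at 0.961, is the highest. Right, LRAT as log2(CPM + 1) in the same libraries, where the 3 cytokine libraries of batch 2 lie far above the other 21.

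The genes farthest below in this vehicle library were developmental regulators of the dorsal hindbrain and a retinoid enzyme. ATOH1, a proneural transcription factor of the rhombic lip, was at 0.65 CPM in the vehicle library of batch 2 and at 35.7, 47.0 and 54.1 CPM in its TGF-β, IL-6 and IL-4+IL-13 libraries. In the other 20 libraries ATOH1 lay between 0 and 8.99 CPM. OLIG3, a transcription factor of dorsal progenitors, was at 3.26 CPM in that vehicle library and between 151 and 190 CPM in the 3 cytokine libraries, against at most 21.4 CPM elsewhere. LRAT, which esterifies retinol, was at 1.46 CPM against 62.2 to 70.9 CPM, and did not exceed 1.54 CPM in any library of another batch. In the opposite direction, IGFN1 was at 95.7 CPM in the vehicle library and at 2.19 to 10.7 CPM in the cytokine libraries of batch 2, while it ranged from 38.1 to 205 CPM in the other batches. For these 4 genes the vehicle library had levels of the other batches, and the 3 cytokine libraries of batch 2 were the ones outside them. SGK3, a kinase, was at 2.35 CPM in this vehicle library and at 0, 0 and 0.19 CPM in the cytokine libraries, all within the 0 to 21.7 CPM of the other batches. NewGene_18743 and NewGene_8318, and the readthrough entries RPL36A-HNRNPH2, ISY1-RAB43 and PHOSPHO2-KLHL23, complete the list of the 5 genes farthest off in each direction. These are named only. Readthrough entries share reads with their component genes.

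Across all genes, few changes were common to the treatments. Of 29377 genes tested with edgeR's quasi-likelihood test, 2 passed an adjusted p of 0.05 for the mean of the 3 cytokine treatments against vehicle, 1 higher and 1 lower, which is 0.00681% of the genes. At an unadjusted p under 0.05 there were 2041 genes (6.95%), of which 769 were higher. DESeq2 on the same counts called 170 genes (0.579%), 80 of them higher, and 97 of these had an unadjusted p under 0.05 in edgeR. In simulated counts with 200 changed genes edgeR made 2 false calls and DESeq2 made 92. These counts were drawn with edgeR's own dispersion estimates and held no deviating library. They therefore cannot tell how many of the DESeq2 calls in the real counts are false. For a change that had to be present under each cytokine at an unadjusted p under 0.05 and in the same direction, 1 of the genes called by edgeR and 93 of those called by DESeq2 qualified, and 35 of the latter were unannotated NewGene loci. By the largest of the 3 single p-values, 0 genes passed the adjusted threshold in either edgeR or DESeq2, and 157 genes had an unadjusted p under 0.05 in all 3 comparisons with the same direction, 73 higher and 84 lower.

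The 3 treatments differed in how many genes they moved when each was compared with vehicle in the same model. TGF-β had 102 called genes (0.347%, 24 higher) and IL-4+IL-13 had 186 (0.633%, 109 higher). IL-6 had 0 (0%) in edgeR. At an unadjusted p under 0.05 in edgeR, TGF-β had 2141, IL-6 1400 and IL-4+IL-13 2673 of 29377 genes. DESeq2 called 520, 138 and 589 genes in the same order. The levels of 627 genes differed among the 3 cytokine treatments at an adjusted p of 0.05 (edgeR). The share of within-batch variance that lay between vehicle and cytokines was 6.76%, which did not exceed what exchanging the vehicle label within batches gave (exact permutation test, 1-sided, p = 0.170 over 4096 assignments). The same share was 9.45% for TGF-β, 5.82% for IL-6 and 10.9% for IL-4+IL-13 against the remaining groups. Without batch 4 the share between vehicle and cytokines was 11.3% (exact p = 0.0225), and without batches 2 and 4 it was 9.01% (exact p = 0.203). Without batch 2 alone it was 6.42% (exact p = 0.491). Thus the share passed 0.05 only with batch 4 left out and batch 2 kept, and the call depended on both.

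Few genes placed the vehicle library at an extreme of its batch every time. Of 20962 genes, vehicle was the highest of the 4 libraries in all 6 batches at 13 (0.062%) and the lowest at 8 (0.0382%). The corresponding numbers were 77 and 136 for TGF-β, 135 and 77 for IL-4+IL-13, and 3 and 2 for IL-6. Paired differences had the same sign in 6 of 6 batches at 269 genes that were higher under cytokines (1.28%) and 393 that were lower (1.87%).

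**Figure D2:**
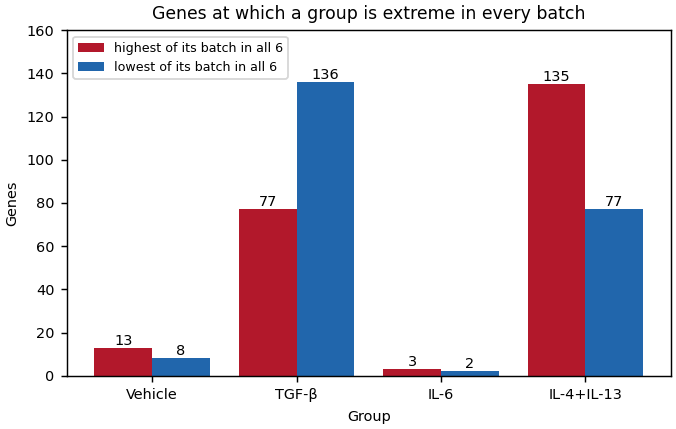
Number of genes, of 20962, at which a treatment group was the highest (red) or the lowest (blue) library of its batch in all 6 batches. Vehicle, with 13 and 8 genes, has more than IL-6 (3 and 2) and fewer than TGF-β (77 and 136) or IL-4+IL-13 (135 and 77).

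The gene that fell under all cytokines was ABCB5, which encodes a transporter of the ATP-binding cassette family and lies on chromosome 7 (20615667 to 20757008, GRCh38.p14). Its level in vehicle libraries of batches 1 to 6 was 3.58, 4.40, 6.54, 4.12, 7.66 and 16.1 CPM. With TGF-β it was at 1.95, 0.939, 1.94, 1.75, 1.91 and 5.57 CPM in the same order. With IL-6 the values were 1.55, 0.802, 5.95, 3.78, 6.91 and 10.2 CPM, and with IL-4+IL-13 they were 1.20, 0.754, 3.24, 1.41, 1.68 and 3.84 CPM. All 18 cytokine libraries lay below the vehicle library of their batch, although the groups overlapped across batches. The log2 fold change was -1.38 (SE 0.202), and edgeR's adjusted p was 0.0476. It was -1.61 for TGF-β, -0.70 for IL-6 and -1.83 for IL-4+IL-13, and these 3 values differed (edgeR, adjusted p = 0.0416). In limma on the 6 paired differences its adjusted p was 0.408, and in an edgeR fit with 1 level for all cytokines it was 0.521, and without the replicate block it was 1.00, so that none of these 3 fits called it. The difference of batch 2, -2.33, was larger than those of the other batches, which lay between -0.95 and -1.42. Without batch 2 the log2 fold change was -1.18 and edgeR's adjusted p 0.0311. ABCB5 then no longer met the rule of an unadjusted p under 0.05 in the same direction under each cytokine. The 2 values were -1.17 and 0.0545 without the vehicle library of that batch alone, and -1.23 and 0.334 without batches 2 and 4. Leaving out any other batch raised the adjusted p above 0.05, to at most 0.269, with a log2 fold change of -1.38 to -1.46.

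The other called gene, ALOX15, did not move with all cytokines. ALOX15, the 15-lipoxygenase gene induced by IL-4 and IL-13, was at 126 to 436 CPM in IL-4+IL-13 libraries and at most 0.538 CPM in every library of the other 3 groups. Its log2 fold change of 3.25 (SE 0.485, edgeR adjusted p = 0.0476) is the average of 10.58 for IL-4+IL-13, -0.43 for TGF-β and -0.41 for IL-6. Without the IL-4+IL-13 libraries the log2 fold change was -0.28.

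Beside ABCB5, the genes with the lowest p-values among those lower under each cytokine did not pass the adjusted threshold in edgeR. These genes, ABCB5 included, met a rule of the same direction under each cytokine and in at least 5 of 6 batches. Their counts of libraries below vehicle therefore largely follow from the choice. DTWD2, which encodes a tRNA-modifying enzyme, had a vehicle level of 22.3 to 61.5 CPM (median 33.8). Its medians were 19 CPM with TGF-β, 24 with IL-6 and 14.9 with IL-4+IL-13, and 18 of 18 cytokine libraries lay below their vehicle library. The log2 fold change was -0.85 (SE 0.136, edgeR adjusted p = 0.0594), with paired differences from -0.53 to -1.14, and batch 2 was not apart here. In DESeq2 its adjusted p was 3.9e-05.

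KCNE2, a potassium channel beta subunit, was at 2.10 to 11.8 CPM in vehicle libraries and lower in 18 of 18 cytokine libraries. Its paired differences were narrow, from -0.35 to -0.63, around a log2 fold change of -0.53 (SE 0.0992, edgeR adjusted p = 0.111). The change was -0.86 for TGF-β, -0.41 for IL-6 and -0.31 for IL-4+IL-13. HHEX, a homeobox transcription factor, was below its vehicle library in 18 of 18 cases, but at 0.41 to 1.85 CPM in vehicle it rested on a mean count of 21. Its log2 fold change was -0.95 (SE 0.174, edgeR adjusted p = 0.111).

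ETNPPL, the phospholyase of phosphoethanolamine, and CHST2, a sulfotransferase of glycans, completed the lower genes. ETNPPL had a median of 1.60 CPM in vehicle and 0.238, 0.756 and 0.644 CPM with TGF-β, IL-6 and IL-4+IL-13. It lay below the vehicle library in 17 of 18 cases, with a log2 fold change of -1.78 (SE 0.336) that was -3.05 for TGF-β. CHST2 had a median of 30.6 CPM in vehicle and of 22 to 25.6 CPM under the cytokines, with a log2 fold change of -0.50 (SE 0.0944) and 16 of 18 libraries below vehicle. The difference of batch 2 was the largest for CHST2, -1.14, and that of batch 3 was -0.01. Both had an adjusted p of 0.111 in edgeR.

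**Figure D3:**
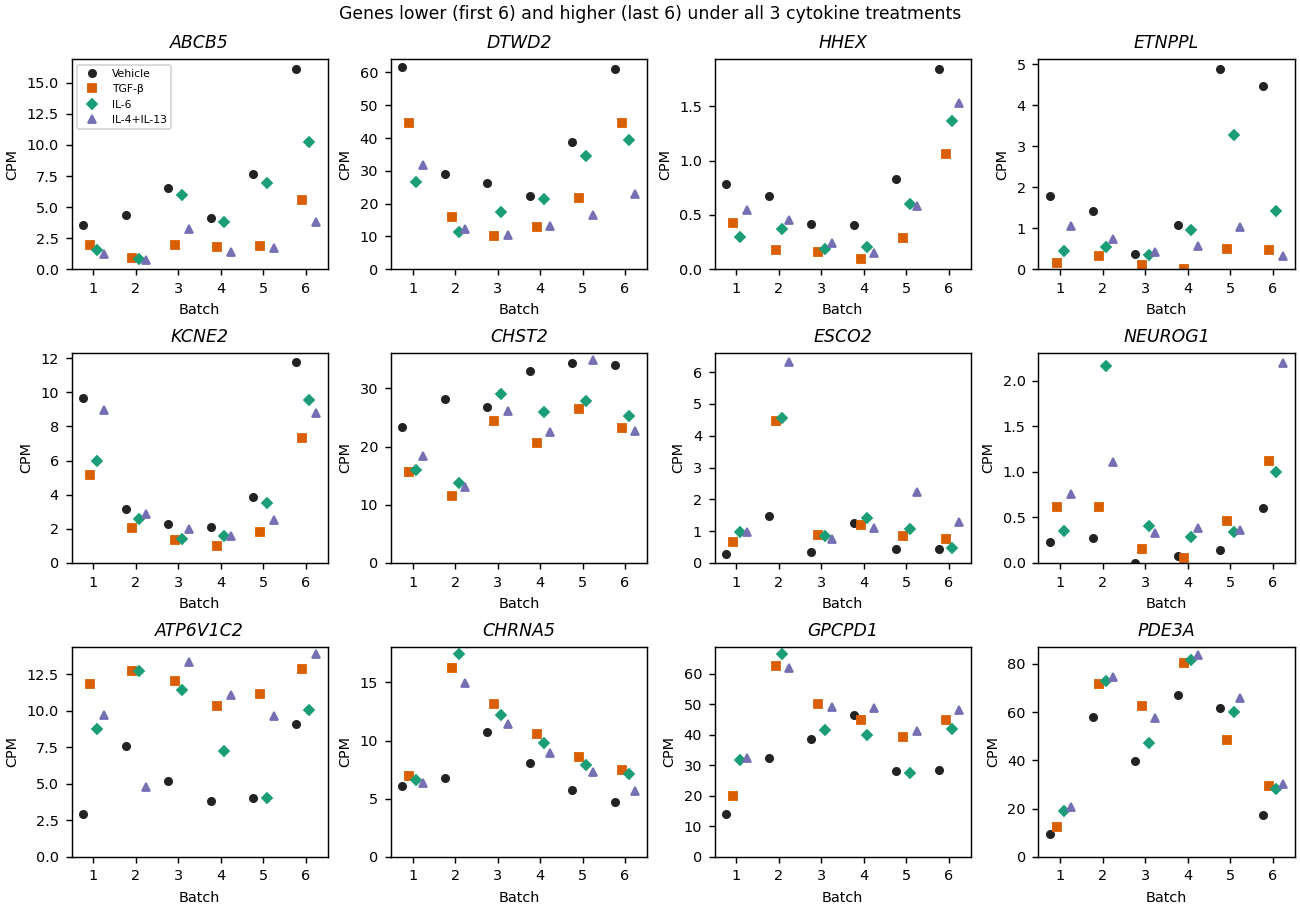
CPM of 12 genes in the 24 libraries, by batch, with 1 point per library and the symbol giving the treatment; the y axes start at 0 and differ between panels. Over the 6 batches, 16 to 18 of 18 cytokine libraries lie below the vehicle library of their batch in each of the first 6 panels. In each of the last 6 panels, 15 to 18 of 18 lie above it. The genes were chosen for the same direction under each cytokine and in at least 5 of 6 batches. These counts therefore largely follow from the choice, and the 18 libraries share 6 vehicle libraries. Of the 12 genes, only ABCB5 passed the adjusted threshold in edgeR.

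Of the 6 genes with the lowest p-values among those higher under each cytokine, 0 were called by edgeR. As they were chosen by the same rule, their counts of libraries above vehicle also largely follow from the choice. ATP6V1C2, which encodes a C subunit of the vacuolar proton pump, had 2.96 to 9.09 CPM in vehicle libraries (median 4.64). Its medians were 12.0, 9.40 and 10.4 CPM with TGF-β, IL-6 and IL-4+IL-13, and 16 of 18 cytokine libraries lay above their vehicle library. The log2 fold change was 0.97 (SE 0.214, edgeR adjusted p = 0.233). Without batch 2, in which the IL-4+IL-13 library was at 4.79 CPM and vehicle at 7.61 CPM, it was 1.09 with an edgeR adjusted p of 0.0329.

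CHRNA5, the alpha 5 subunit of nicotinic acetylcholine receptors, was above its vehicle library in 18 of 18 cytokine libraries. The vehicle median was 6.46 CPM, and those of TGF-β, IL-6 and IL-4+IL-13 were 9.55, 8.84 and 8.11 CPM. Its log2 fold change was 0.44 (SE 0.103, edgeR adjusted p = 0.305). The difference of batch 2, 1.24, lay far from the others, which were 0.11 to 0.50.

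NEUROG1, a transcription factor that commits progenitors to a sensory neuron fate, was scarce, with 0 to 0.608 CPM in vehicle and up to 2.20 CPM under cytokines. It was above vehicle in 17 of 18 libraries, and its log2 fold change was 1.72 (SE 0.375, edgeR adjusted p = 0.224) at a mean count of 20.9. ESCO2, an acetyltransferase that establishes sister chromatid cohesion during DNA replication, was at 0.282 to 1.48 CPM in vehicle and at 0.456 to 6.30 CPM under cytokines, highest in the 3 cytokine libraries of batch 2. Its log2 fold change was 1.12 (SE 0.243, edgeR adjusted p = 0.223), with 16 of 18 libraries above vehicle. GPCPD1, a glycerophosphocholine phosphodiesterase, and PDE3A, a phosphodiesterase of cyclic nucleotides, had log2 fold changes of 0.50 (SE 0.123) and 0.42 (SE 0.105), with 15 and 16 of 18 libraries above vehicle.

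Some genes were extreme in vehicle in every batch but changed little. TTC19, SEPTIN5, NOP56 and CNOT9 were lowest in vehicle in all 6 batches, with log2 fold changes of 0.14, 0.17, 0.11 and 0.11. NOP56, a core protein of box C/D ribonucleoprotein particles, ranged from 90.8 to 109 CPM in vehicle and from 97.4 to 116 CPM in cytokine libraries. WDR55, a WD repeat protein involved in ribosome production, was highest in vehicle, at 30.3 to 33.9 CPM, with a log2 fold change of -0.21. TMEM182 (0.30) and PARPBP (0.72) were lowest in vehicle, and ANO9 (-0.71), PLEKHG6 (-0.48) and the bitter taste receptor gene TAS2R14 (-0.88, a repeated symbol) were highest. The adjusted p of each was above 0.05 in edgeR.

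S100A4, a calcium-binding protein of migrating and mesenchymal cells, was lower in 17 of 18 cytokine libraries. Its vehicle range was 5.08 to 13 CPM, and the medians were 3.43, 5.79 and 3.90 CPM with TGF-β, IL-6 and IL-4+IL-13. The log2 fold change was -1.01 (SE 0.200, edgeR adjusted p = 0.151), with an adjusted p of 0.0025 in DESeq2. The list of fibroblast and mesenchyme markers to which S100A4 belongs had a median log2 fold change of -0.14, with 0 of 13 members called. Its paired median was -1.38 in batch 2, and without that batch the median log2 fold change was 0.03 with 9 of 13 above 0. The summed level of the list was 5002 to 14675 CPM in vehicle, 6281 to 17908 with TGF-β, 5334 to 11624 with IL-6 and 4426 to 7766 with IL-4+IL-13. Its part in the level of S100A4 was not tested.

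Genes of DNA replication and mitosis had positive log2 fold changes under cytokines, the largest of them from batch 2. Of 16 genes measured 0 were called, 6 had an unadjusted p under 0.05, all higher, and 16 had a positive log2 fold change, with a median of 0.56 against -0.02 over all genes tested. The median of the paired differences was 0.92, 2.31, 0.58, -0.67, -0.04 and 0.48 in batches 1 to 6, so it was below 0 in batches 4 and 5. CDK1, the kinase that drives entry into mitosis, was at 2.26, 5.86, 2.02, 11.6, 6.40 and 4.16 CPM in vehicle. Its cytokine libraries were at 31.9 to 42.0 CPM in batch 2 and at 4.50 to 14.5 CPM in the other batches. RRM2, a subunit of ribonucleotide reductase, had a log2 fold change of 0.87 (SE 0.295) and CDK1 one of 0.93 (SE 0.348), with an edgeR adjusted p of 0.633 and 0.659. Without batch 2 the median of the list was 0.30, with 1 gene at an unadjusted p under 0.05. Without batch 4 it was 0.81, with 15 genes, and without both it was 0.52, with 11 genes. Over all genes tested, 2041 of 29377 had an unadjusted p under 0.05 in edgeR with 6 batches, and 1428 of 28930 without batch 2. There were 3830 of 28891 without batch 4 and 1562 of 28323 without both.

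Genes of the unfolded protein response, the chaperones and sensors that act when proteins misfold in the endoplasmic reticulum, also had their largest differences in batch 2. Of 13 measured genes 0 were called and 9 had an unadjusted p under 0.05 (6.95% of all genes tested), all higher, with a median log2 fold change of 0.24. The paired median was 1.03 in batch 2 and between -0.12 and 0.34 in the others. XBP1, the transcription factor spliced in this response, was at 118 CPM in the vehicle library of batch 2 and at 205 to 257 CPM in its cytokine libraries. In the other batches XBP1 lay between 103 and 134 CPM in vehicle and between 116 and 153 CPM under cytokines. Without batch 2 the median of the list was 0.10 and 3 genes had an unadjusted p under 0.05, and without batches 2 and 4 it was 0.08, with 1 gene.

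Targets of ATF4, the transcription factor of amino acid starvation and related stress, had a median log2 fold change of 0.17. Of 15 genes, 0 were called and 5 were higher at an unadjusted p under 0.05 (6.95% of all genes tested, in either direction). DDIT3, which encodes the stress factor CHOP, had a log2 fold change of 0.38 (SE 0.0999, edgeR adjusted p = 0.452) and was above vehicle in 16 of 18 libraries. In batch 2 its paired difference was 1.09, and in the others it was between -0.07 and 0.45. Without batch 2 the median of the list was 0.08, with 4 genes at an unadjusted p under 0.05. Cytosolic ribosomal protein genes had a median of 0.22, with 19 of 19 above 0, and paired medians of 1.10 in batch 2 and -0.13 to 0.24 in the others. Their median was 0.06 without batch 2.

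**Figure D4:**
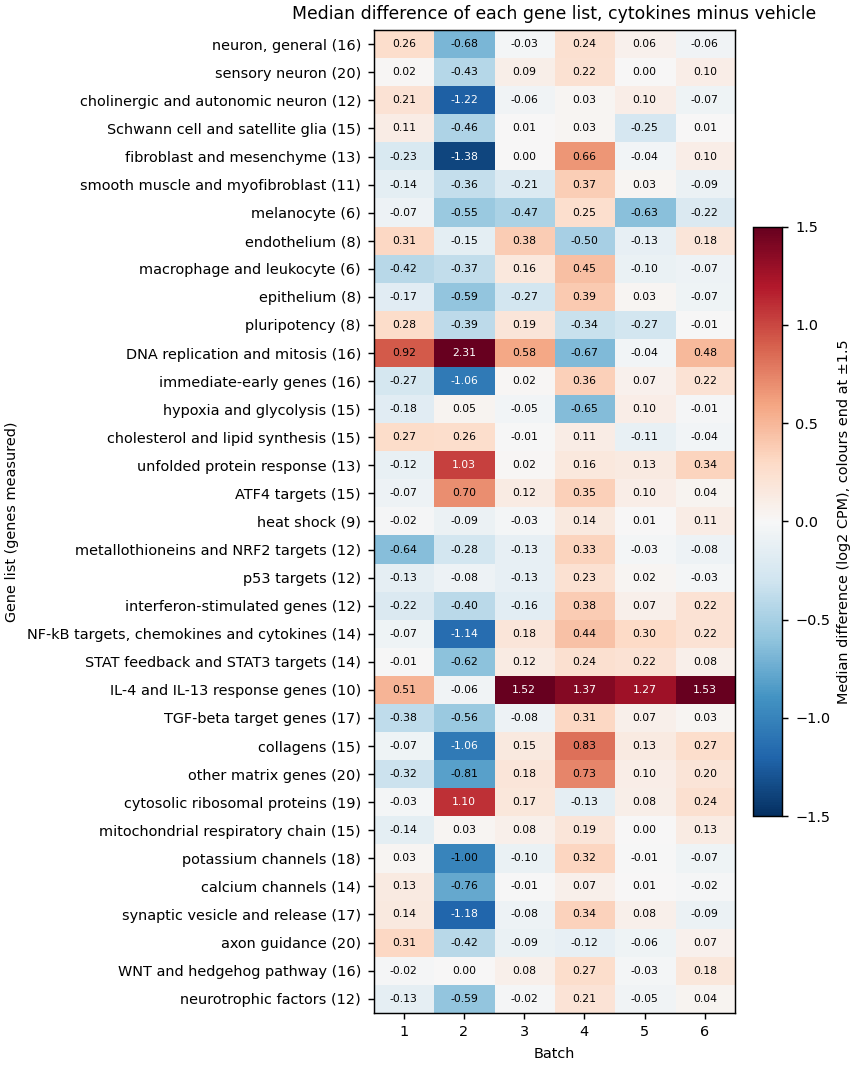
Median over genes of the difference between the mean of the 3 cytokine libraries and vehicle (log2 CPM), for 35 gene lists (rows, number of genes measured in brackets) in 6 batches (columns), with red for higher and blue for lower under cytokines. Batch 2 holds strong values of both signs, such as 2.31 for DNA replication and -1.38 for fibroblast markers, IL-4 and IL-13 response genes reach 1.53 in batch 6, and batch 4 has the opposite sign in many lists.

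No common shift of neuronal genes was seen. Their counts were near the shares over all genes, 0.00681% called and 6.95% at an unadjusted p under 0.05 (edgeR). These counts therefore cannot decide whether a smaller shift was present. General neuron markers had a median log2 fold change of -0.06 (0.11 without batch 2), with 0 of 16 called and 0 at an unadjusted p under 0.05, and their summed level was 2913 to 15921 CPM in vehicle libraries and 2671 to 16807 CPM in cytokine libraries. Sensory neuron genes had a median of -0.09, and of 0.07 without batch 2. Of the 20 genes, 0 were called, and 1 was higher and 1 lower at an unadjusted p under 0.05. The latter was CALCB, a calcitonin gene-related peptide gene, with a log2 fold change of -1.87 (SE 0.795) at a mean count of 2.12. TRPV1, the capsaicin receptor, had a log2 fold change of -0.03, and PIEZO2, a mechanosensitive channel, one of -0.07.

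Synaptic vesicle genes had a paired median of -1.18 in batch 2 and of -0.09 to 0.34 in the other batches. Their log2 fold change over all batches, a median of -0.17 with 2 of 17 genes above 0, became 0.10 with 16 of 17 above 0 when batch 2 was left out. The same turn of sign was found for general neuron markers (0.11 without batch 2, 16 of 16 above 0), potassium channels (-0.15 and 0.05), calcium channels (-0.10 and 0.05), collagens (-0.04 and 0.20) and other matrix genes (-0.04 and 0.21). The directions of these lists therefore depended on batch 2, and 0 of their members were called with it. Without batch 2, COL6A1 of the collagen list was called (edgeR adjusted p = 0.000517). Its log2 fold change over all batches was 1.31 with IL-4+IL-13, 0.08 with TGF-β and -0.12 with IL-6.

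**Figure D5:**
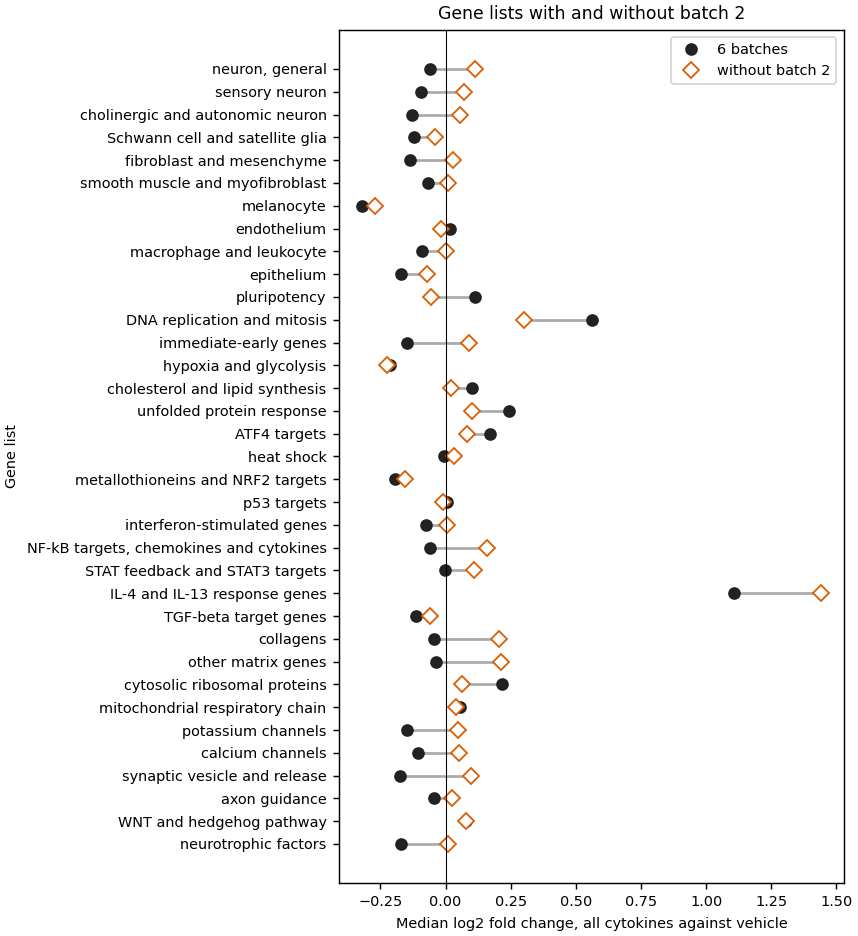
Median log2 fold change of 35 gene lists for all cytokines against vehicle, with 6 batches (filled circles) and without batch 2 (open diamonds), joined by a line for each list. Neuronal, channel, collagen and matrix lists cross 0, and IL-4 and IL-13 response genes stay the farthest above it.

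IL-4 and IL-13 response genes, and TGF-β target genes, had their highest medians with the cytokine they are named for. The former had a median log2 fold change of 1.11 in the mean over cytokines, with 1 of 10 called (ALOX15). Of the 10, 7 were higher at an unadjusted p under 0.05 (6.95% of all genes tested, in either direction). Their paired median was -0.06 in batch 2. Without that batch their median log2 fold change was 1.44, with 10 of 10 higher at that threshold (1428 of 28930 over all genes). With 6 batches their median was 2.96 with IL-4+IL-13, 0.02 with TGF-β and -0.14 with IL-6. CISH, a feedback inhibitor of cytokine receptors, had log2 fold changes of 4.40 with IL-4+IL-13, 0.44 with TGF-β and 0.41 with IL-6. PMCH, the precursor of melanin-concentrating hormone, was at 1.01 (SE 0.167, edgeR adjusted p = 0.065) in the mean, with 2.31 for IL-4+IL-13, 0.84 for TGF-β and -0.12 for IL-6. TGF-β target genes had a median of 0.14 with TGF-β, -0.09 with IL-6 and -0.23 with IL-4+IL-13, and 0 of 17 were called in the mean. STAT feedback and STAT3 target genes, which IL-6 is known to induce, had a median of -0.11 with IL-6, 0.13 with TGF-β and -0.12 with IL-4+IL-13, and 0 of 14 were called in the mean. Their paired median over the cytokines was -0.62 in batch 2 and -0.01 to 0.24 in the others. In the mean over cytokines their median log2 fold change was -0.0016, and 0.11 without batch 2. The value for IL-6 alone was obtained only with batch 2 kept.

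RSPO3, a secreted enhancer of WNT signalling, had similar values under each cytokine. Its log2 fold change was 0.46 (SE 0.117, edgeR adjusted p = 0.419), with 0.48 for TGF-β, 0.38 for IL-6 and 0.52 for IL-4+IL-13 and 16 of 18 libraries above vehicle. In vehicle it was at 5.06 to 19.6 CPM. DESeq2 gave it an adjusted p of 0.0323.

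Melanocyte markers had 0 of 6 genes called. Their median log2 fold change was -0.32, with 6 of 6 below 0 in the mean over cytokines. It was -0.77 with TGF-β, -0.32 with IL-6 and 0.05 with IL-4+IL-13, beside -1.61, -0.70 and -1.83 for ABCB5 in the same order. The paired median was negative in every batch but batch 4. PMEL, a structural protein of melanosomes, was at 46.2 to 418 CPM in vehicle and had a log2 fold change of -0.36 (SE 0.142, edgeR adjusted p = 0.682). TYR, the enzyme that starts melanin synthesis, had one of -0.46 (SE 0.201), with -0.94 for TGF-β, -0.44 for IL-6 and -0.01 for IL-4+IL-13. The summed level of the list was 89.0 to 736 CPM in vehicle, 78.7 to 664 with TGF-β, 113 to 647 with IL-6 and 129 to 646 with IL-4+IL-13. The part of these cells in the level of ABCB5 was not tested.

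The remaining lists held no called gene. The median log2 fold changes of the other cell type markers were -0.12 for Schwann cells and satellite glia, -0.07 for smooth muscle, 0.02 for endothelium, -0.09 for macrophages and leukocytes, -0.17 for epithelium, 0.11 for pluripotency and -0.13 for cholinergic and autonomic neurons. Without batch 2 they were -0.04, 0.01, -0.016, 0.0027, -0.07, -0.06 and 0.06 in the same order, so that the sign turned for all but glia and epithelium. Macrophage and leukocyte markers summed to 7.2 to 57.0 CPM over all libraries. In the epithelial list CDH1, the E-cadherin gene, had a log2 fold change of -1.02 (SE 0.260, edgeR adjusted p = 0.431), with paired differences from -2.68 in batch 2 to 0.02 in batch 4. Medians of the other pathways lay between -0.21 for hypoxia and glycolysis and 0.10 for cholesterol and lipid synthesis, among them 0.01 for p53 targets, -0.0043 for heat shock, -0.08 for interferon-stimulated genes and -0.06 for NF-kB targets. Each of these 4 turned sign without batch 2, to -0.011, 0.032, 0.0070 and 0.16, as did immediate-early genes, from -0.15 to 0.09, and neurotrophic factors, from -0.17 to 0.01. The median of hypoxia and glycolysis stayed at -0.23 without batch 2, but was -0.0054 without batch 4 and 0.025 without both. Its paired median was -0.65 in batch 4 and -0.18 to 0.10 in the others.

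The paired differences of separate batches had little in common. Over 20962 genes, the correlation of the paired difference between batches, which share no library, ran from -0.403 (batches 2 and 4) to 0.265 (batches 1 and 2), as a description across genes that are not independent. The 2 most opposed batches hold the 4 libraries that were closer to another batch than to their own.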

How the data were processed

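For each gene the authors deposited raw counts of reads, not normalized. Per the paper, their sequencing provider removed adapters with Trimmomatic 0.30, and the reads were aligned to GRCh38.p14 of Ensembl. One label names a mouse reference instead, while the gene identifiers of the counts have the style of human RefSeq. The aligner, counting tool and strandedness are not given in the sources used here. The table lists 36468 entries, of which 13161 are NewGene loci (1.97% of counts) and 4886 share a symbol. The study describes its batches as differentiations, all from 1 cell line. With batch as a term in the fit, p-values measure the spread of libraries left after batch and treatment, within that line.

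Counts were tested with edgeR 4.0.16 (R 4.3.3; TMM, robust quasi-likelihood F test, treatment and batch as terms, Benjamini-Hochberg adjustment over all genes whose counts summed to 10 or more). The contrast was the mean of TGF-β, IL-6 and IL-4+IL-13 minus vehicle. The batch labels pair the libraries. DESeq2 1.42.0, limma 3.58.1 and fits without single batches or groups were alternatives. Standard errors were derived from the fold change and F statistic. Log2 CPM used a prior count of 2. The scripts were tested on simulated data, in which edgeR recovered 91% of log2 folds of 1.5 and 71% of 0.75, and DESeq2 recovered 96% and 76%.

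Named genes are the called genes, the 12 called genes of largest change in each direction that moved alike (mean count of at least 10, same sign in 5 of 6 batches, unique symbol) or, where fewer than 6 qualified, the 6 of lowest p, members of 35 lists and, for a library with an RMS over 1.5 times the median, 5 genes each way of mean count at least 100. Genes extreme in vehicle in every batch, or called under an alternative, were named after their values were seen. Members and lists were chosen with earlier results of these data known. A few genes that entered the tests and counts are not reported here by name. Coordinates are from RefSeq (GRCh38.p14). With 24 libraries of 33342682 to 39817784 counts, the spread of libraries within batches, not counting error, set the precision of abundant genes.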

Additional observations from a re-analysis of the deposited data

Results flagged for a closer look

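In the vehicle group, the RMS deviation of batch 2, 0.961, lay farther from the others than Dixon's test allows in a group of 6. The test was applied to 85 groups of 6 and flagged 13, where chance flags about 1 in 20. Of these, 12 were genes named in the text, and in every one the batch that lay apart was batch 2. The paired differences (cytokines minus vehicle, log2 CPM) of batch 2 were -2.33 for ABCB5, 1.24 for CHRNA5, -1.63 for ANO9, 0.31 for CNOT9, -0.39 for COL6A1 and -3.06 for SLC6A2. They were -0.82 for KRT19, 0.94 for XBP1, 1.02 for ASNS, -1.48 for KCNC1, -1.90 for KCNT1 and -1.20 for ATP2B2. The genes share the libraries of 1 batch, so the flags are not independent. The cause was not tested.

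The response of 20 of 81 named genes differed among the 3 cytokines (edgeR, test of the difference itself, adjusted over all genes), beside 627 of all 29377 genes tested. The 81 were named partly for their values in these data, so a higher share among them follows from the choice. Among genes lower under each cytokine, the adjusted p was 0.0416 for ABCB5 and 0.0412 for KCNE2. Among genes that one treatment moved most, it was 2.66e-12 for ALOX15, 1.85e-06 for PMCH, 1.46e-06 for CISH, 0.0225 for SLC2A5, 0.00221 for CDC20B, 2.51e-06 for COL6A1, 0.00219 for TNFAIP6, 1.85e-06 for NABP1 and 4.18e-05 for PFKP. Among list members it was 0.0112 for MT1G, 0.0235 for VCAM1, 0.00483 for SERPINA3, 0.000581 for COL10A1, 0.0278 for COL11A1, 0.00438 for LOXL2, 0.000728 for VCAN, 0.000659 for NTF3 and 0.0107 for IGF1. For COL10A1, a collagen gene, the log2 fold change was 4.51 with TGF-β, 0.36 with IL-6 and 0.24 with IL-4+IL-13.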

How the results depend on the processing

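The count of genes called for all cytokines against vehicle was 2 in the main test. It was 170 with DESeq2, 1 with no low-count filter, and 0 with 1 cytokine level or with limma on the 6 paired differences. Without the pairing, in a fit with no replicate block, it was 0, and 782 genes had an unadjusted p under 0.05. It was 1 without the TGF-β libraries, 9 without the IL-6 libraries and 0 without those of IL-4+IL-13, and 3 without the vehicle library of batch 2 (COL6A1, TNFAIP6 and PFKP). Leaving out each batch gave 0 to 7 genes, the latter without batch 2. With alternatives added after seeing the data, it was 15 with limma-voom and sample weights, 133 with DESeq2 without batch 2 and 2 without batches 2 and 4. Of genes moved alike, 1 in the main test, there were 93 with DESeq2, 7 without the IL-6 libraries, 7 with sample weights and 72 with DESeq2 without batch 2. There were 0 without the block, without the vehicle library of batch 2, without the TGF-β or the IL-4+IL-13 libraries and without batches 2 and 4, and 0 to 1 without single batches. The largest of the 3 p-values called 0 genes in every setting except DESeq2 without batch 2, with 2. The share of within-batch variance between vehicle and cytokines, 6.76%, was 6.30 to 7.15% under other normalizations and filters, 9.01% without batches 2 and 4 and 6.42 to 11.3% without single batches, where 11.3% was that without batch 4 (exact permutation p = 0.0225).

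Of 81 named genes under 21 alternatives, 5 changed sign once. Without the IL-4+IL-13 libraries the log2 fold change was -0.28 for ALOX15, -0.00075 for COL6A1, -0.11 for NABP1 and -0.17 for PFKP, and without batches 2 and 4 it was 0.0045 for TNFAIP3. For ABCB5 it ranged from -1.70 to -1.14, and its adjusted p from 3.5e-06 with DESeq2 to 1.00 without the block. The depth of these libraries limits genes of few counts, such as HHEX and NEUROG1. The cause of the differences between settings was not tested.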
